A study of Mus musculus with 30 samples.

Results

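The genes described here are 10 mouse genes of the unfolded protein response and of the response to amino acid shortage: Hspa5, Ddit3, Atf4, Atf3, Asns, Trib3, Chac1, Sesn2, Herpud1 and Xbp1. They were taken by symbol, 10 of the 53431 genes in the count table. Their mRNA was followed in CT-26 and Colon 26, both murine colon carcinoma lines from BALB/c mice, by poly-A RNA-seq. Each line was sequenced as cells in culture (3 libraries) and as tumors grown in female BALB/c mice from cells implanted under one flank, taken in size classes of 100, 400 and 800 mm3 (4 libraries each), which gives 8 groups and 30 libraries. Measured volumes ran from 103.33 to 145.86, 400.47 to 464.68 and 810.36 to 938.57 mm3 for CT-26 and from 102.9 to 124.88, 401.52 to 466.73 and 807.93 to 963.18 mm3 for Colon 26. The sample labels share a protocol text that describes dosing with checkpoint antibodies, but no sample label names an antibody, so the tumors were grouped by model and size class only. A whole tumor holds host cells beside the implanted ones, and in such bulk samples fewer cells of a type and less RNA per cell cannot be told apart.

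When unfolded proteins gather in the endoplasmic reticulum (ER), 3 sensors respond: PERK, IRE1 and ATF6. PERK, like the amino acid sensor GCN2, phosphorylates eIF2alpha, which slows translation as a whole while favouring translation of the transcription factor ATF4. ATF4 raises genes of amino acid synthesis and uptake, among them Asns, and the stress genes Ddit3 (CHOP), Atf3, Trib3, Chac1 and Sesn2. ATF6 and spliced XBP1 raise ER chaperones and degradation factors, among them Hspa5 (BiP) and Herpud1. ATF4 protein is set largely by translation and XBP1 by splicing, and neither step is visible in counts per gene.

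The promoters are shown because they hold the short motifs through which these arms are known to act. Promoter windows of 300 bases (250 before and 50 after the start, RefSeq, GRCm38.p6) were found for all 10 genes and searched on both strands for the C/EBP-ATF response element CARE (TGATGNAA, found in 3.97% of the 32851 promoters of that table), the ER stress element ERSE (CCAAT and CCACG with 9 bases between, 0.12%), ERSE-II (ATTGG and CCACG with 1 base between, 0.04%), the unfolded protein response element UPRE (TGACGTGG, 0.68%) and the cyclic AMP response element CRE (TGACGTCA, 1.79%). UPRE and CRE share their first letters. Capitals mark the motif in each stretch, written 5′ to 3′ on the strand of the gene, and a match is a description only. The stretches lie at chr2:34772010-34772058 (plus strand) for Hspa5, chr6:7693210-7693247 (minus) for Asns, chr1:191183421-191183458 (minus) for Atf3, chr2:119351034-119351071 (plus) for Chac1 and chr8:94386302-94386402 (plus) for Herpud1.
Hspa5: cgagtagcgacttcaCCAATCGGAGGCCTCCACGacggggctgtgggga
Asns: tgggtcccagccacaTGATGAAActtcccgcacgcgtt
Atf3: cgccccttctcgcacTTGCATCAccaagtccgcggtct
Chac1: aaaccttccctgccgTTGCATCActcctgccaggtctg
Herpud1: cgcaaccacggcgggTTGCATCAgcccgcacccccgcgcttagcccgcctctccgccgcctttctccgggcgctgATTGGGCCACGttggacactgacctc
The Hspa5 stretch holds an ERSE, at positions -65 to -47 from the RefSeq start. The Asns stretch holds a CARE at -23 to -16, and those of Atf3 and Chac1 hold a CARE on the opposite strand. Herpud1 carries both a CARE on the opposite strand (-112 to -105) and an ERSE-II (-52 to -42). In Trib3 a CARE lies after the start, at 14 to 21, and none of these letters stood in the windows of Ddit3, Atf4, Sesn2 or Xbp1.

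In the GENCODE M21 annotation (GRCm38) the genes lie at chr2:34771970-34777547 (Hspa5), chr10:127290774-127296288 (Ddit3), chr15:80255184-80257541 (Atf4), chr1:191170296-191218039 (Atf3), chr6:7675169-7693254 (Asns), chr2:152337422-152344032 (Trib3), chr2:119351229-119354381 (Chac1), chr4:132492032-132510501 (Sesn2), chr8:94386438-94395377 (Herpud1) and chr11:5520659-5525893 (Xbp1). The promoter stretches of Hspa5, Asns and Atf3, placed by the RefSeq start, lie inside these GENCODE spans, so their positions hold for the RefSeq start only. Exons of Ddit3 share 68 bases with Mars and 13 with Gm4189 on the opposite strand, and 105 with a second gene entry of the same symbol on the same strand, which was at 0 in every library. Whether the counting used strand is not given in the sources used here, so a small part of the Ddit3 reads could belong to these overlapping genes.

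The libraries held 21384730 to 39722586 counts. The library numbers in the labels of the CT-26 and Colon 26 cultures come from different runs of numbers, and Colon 26 was sequenced more deeply (median 39425193 counts against 23995718), so that a batch and the model cannot be told apart in culture. Of 5 epithelial markers, Epcam was at 0 in all 6 cultures, and Cdh1, Krt8 and Krt19 were at means of 0.416 CPM (counts scaled to a common library total) or less in both lines. Krt18 was at a mean of 15.7 CPM in the CT-26 cultures but 0.0257 CPM in those of Colon 26. The summed leukocyte markers were at 62.4 to 72.7 CPM in the CT-26 cultures and 1270 to 2505 CPM in the 100 mm3 tumors, and at 6.96 to 8.27 and 2424 to 2952 CPM in Colon 26. Cd68 made up most of the sum in CT-26 culture (mean 60.8 CPM), where Ptprc was at 0.161 CPM. One Colon 26 tumor of 400 mm3 (replicate 1) stood apart, with the lowest mean correlation with its own group (r = 0.989) and 2136 CPM of skeletal muscle markers. Among the 100 mm3 tumors these markers reached 1111 CPM in Colon 26 (replicate 2) and 429 CPM in CT-26 (replicate 4). Nothing in the labels says whether the cultures were separate, so p-values measure the spread between these libraries.

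Levels of one gene are given in CPM with library sizes scaled by TMM over all 30 libraries. Per length (FPKM, fragments per kilobase at a common library total, group medians), Hspa5 was the most abundant member in CT-26 culture at 809 FPKM, followed by Atf4 at 416 and Ddit3 at 358 FPKM. Asns stood at 236, Trib3 at 122, Chac1 at 77.6, Herpud1 at 66.7, Xbp1 at 41.1 and Sesn2 at 22.5 FPKM, and Atf3 at 0.1 FPKM was the lowest. In 100 mm3 CT-26 tumors Hspa5 (419 FPKM) and Atf4 (291 FPKM) still led, and Asns (144 FPKM) had passed Ddit3 (54.2 FPKM).

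**Figure D1:**
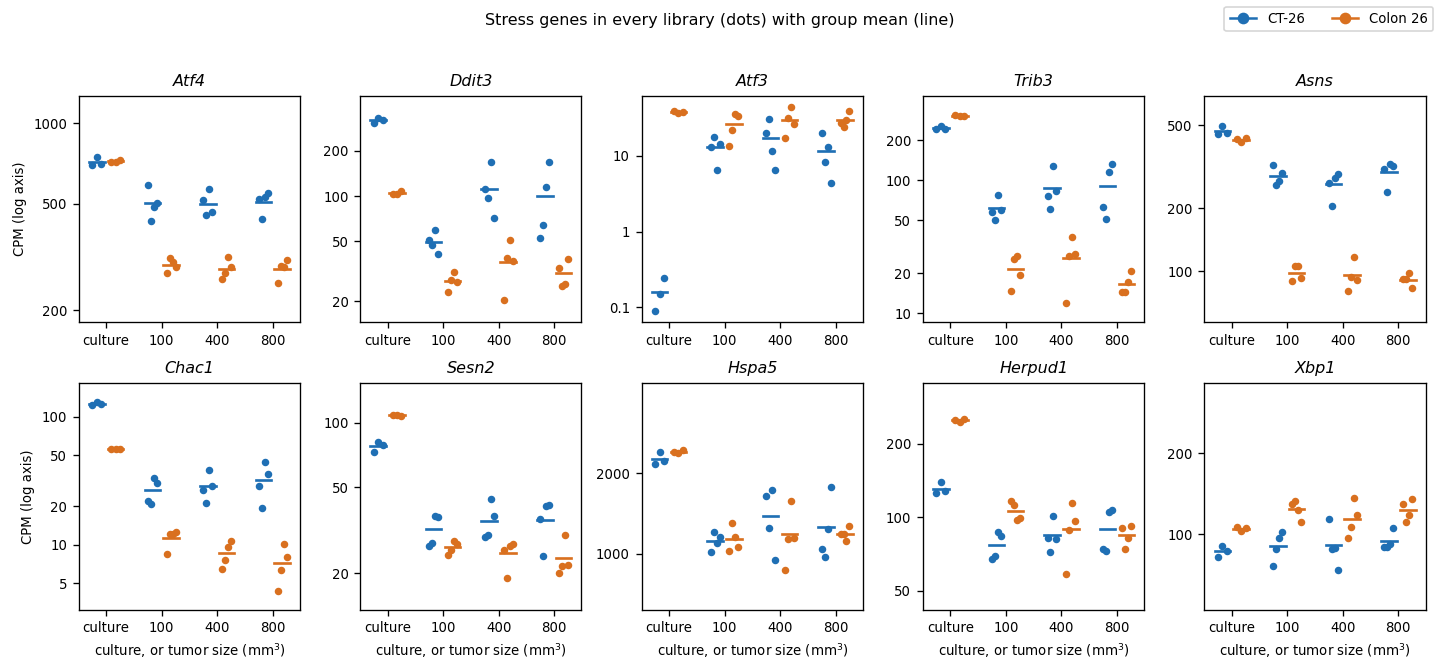
Each panel plots 1 gene in CPM on a log axis against culture or tumor size class, with a dot for each library and a line at the group mean, CT-26 in blue and Colon 26 in orange. Asns, Atf4, Trib3 and Chac1 dots of the Colon 26 tumors lie below all CT-26 tumor dots of the same size, and the Atf3 dots of CT-26 culture lie at 0.0901 to 0.247 CPM.

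The first question was whether the 2 lines differed as cultured cells. In culture Colon 26 had far more Atf3 and less Ddit3 and Chac1 than CT-26, while Atf4 and Hspa5 stood at nearly the same level. Differences were tested by edgeR's quasi-likelihood test and called at an adjusted p (Benjamini-Hochberg over all genes tested) of at most 0.1 and a log2 fold change of at least 1 in size, as Colon 26 minus CT-26. Of the 10 genes, 1 was called higher and 2 lower in Colon 26, against 22.9% of all genes tested called in either direction (10.6% higher, 12.3% lower). Their median log2 difference was 0.15, beside 0.01 over all genes. Libraries of the 2 lines did not overlap for 8 members, 5 higher and 3 lower in Colon 26, where 42.2% and 36.8% of all genes did the same.

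Atf3, a stress-induced repressor and activator of transcription, was at 0.0901, 0.149 and 0.247 CPM in the CT-26 cultures, from 2, 4 and 6 counts, and at 38.7, 36.6 and 38.3 CPM in the Colon 26 cultures. The groups did not overlap, and the pooled counts (12 against 4312) gave a ratio of 231-fold, with a 95% exact interval of 132 to 448 that covers counting error only. The fitted log2 difference was 7.79 ± 0.13 (SE, adjusted p = 2.5e-17, edgeR). Ddit3, the transcription factor CHOP, stood at 307, 332 and 321 CPM in CT-26 and at 102.5, 102.5 and 107 CPM in Colon 26. All 3 Colon 26 values lay below all 3 of CT-26, a log2 difference of -1.65 ± 0.03 (adjusted p = 7.78e-17). Chac1, which degrades glutathione, was at 122, 130 and 126 CPM in CT-26 and at 55.9, 56.3 and 55.6 CPM in Colon 26. It was 2.31-fold lower in Colon 26 (log2 difference -1.21 ± 0.03, adjusted p = 2.83e-15).

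The other 7 members differed by less than the fold threshold. Atf4 was at 701, 745 and 701 CPM in CT-26 and at 718, 716 and 727 CPM in Colon 26, overlapping groups with a log2 difference of -0.03 ± 0.03 (adjusted p = 0.35). Hspa5, the main ER chaperone, was at 2169, 2395 and 2222 CPM in CT-26 and at 2402, 2380 and 2444 CPM in Colon 26. Its ranges overlapped too, with a log2 difference of 0.06 ± 0.02 (adjusted p = 0.0457). Asns, which makes asparagine, was at 454, 495 and 459 CPM in CT-26 and at 429.6, 416 and 433 CPM in Colon 26, a small but non-overlapping difference of -0.18 ± 0.03 (adjusted p = 2.82e-05). Herpud1, a membrane protein of ER-associated degradation, came nearest to the fold threshold, at 125, 139 and 128 CPM in CT-26 and 251, 244 and 252 CPM in Colon 26 (log2 difference 0.89 ± 0.03, adjusted p = 1.4e-13). Trib3, a pseudokinase that restrains this response (0.28 ± 0.03), Sesn2, which inhibits mTORC1 when leucine is short (0.44 ± 0.03), and Xbp1 (0.24 ± 0.03) were also slightly higher in the Colon 26 cultures.

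The next question was whether the models differed as tumors. Asns, Trib3 and Chac1 were lower in Colon 26 tumors at every size, by 2.35-fold to 5.44-fold. Atf4 itself was lower by 1.7-fold to 1.8-fold at every size, without overlap but under the fold threshold. Hspa5, Herpud1 and Xbp1 were called at no size. The counts called were 1 higher and 3 lower of 10 at 100 mm3 (13.2% of all genes called in either direction, 6.17% higher and 7.06% lower), 0 higher and 4 lower at 400 mm3 (14.3%, 6.48% and 7.79%) and 1 higher and 4 lower at 800 mm3 (14.1%, 6.5% and 7.62%). The median log2 difference of the members was -0.52, -0.65 and -0.73 at the 3 sizes, beside -0.00, 0.03 and -0.01 over all genes. Members lower in Colon 26 without overlap numbered 5, 6 and 5, where 25.3%, 22.2% and 24.7% of all genes did so, and members higher without overlap numbered 2, 0 and 2 (22.1%, 21% and 23.3%). Host cell markers differed between the models at 100 mm3, in both directions. The leukocyte sum (1270 to 2505 CPM in CT-26, 2424 to 2952 in Colon 26) was carried by the myeloid genes Lyz2 (means 1153 and 1851 CPM), Csf1r and Itgam, whereas Ptprc (103 and 92.4 CPM), Cd3e (3.22 and 1.77) and Cd8a (8.15 and 3.66) had higher means in CT-26. The fibroblast sum (3143 to 4398 against 4576 to 5580 CPM) was mostly collagen genes, of which Col1a2 was also at 1099 and 1167 CPM in the cultures, and Dcn (175 and 76.6 CPM) and Pdgfrb (115 and 96.5 CPM) had higher means in CT-26. The part of these markers in the differences was not tested.

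Asns separated the models at every size. At 100 mm3 it was at 323, 258, 272 and 296 CPM in CT-26 and at 89.8, 106, 106 and 92.7 CPM in Colon 26. At 400 mm3 the CT-26 tumors held 266, 205, 280.4 and 294 CPM and the Colon 26 tumors 80.2, 94.3, 117 and 90.9 CPM. At 800 mm3 the values were 309, 239, 325 and 319 CPM against 92.4, 92.3, 97.8 and 83.1 CPM. The lowest CT-26 tumor thus stood above the highest Colon 26 tumor at each size. The log2 differences were -1.55 ± 0.09 (adjusted p = 4.86e-06), -1.45 ± 0.14 (7.95e-05) and -1.72 ± 0.10 (9.37e-07) by edgeR.

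Trib3 was at 57.2, 50.5, 77.8 and 59.7 CPM in 100 mm3 CT-26 tumors and at 14.6, 25.4, 26.7 and 19.4 CPM in Colon 26 tumors of that size. At 800 mm3 the gap was wider, with 62.3, 51.0, 114 and 132.5 CPM in CT-26 and 14.5, 14.3, 17.2 and 20.8 CPM in Colon 26. No library overlapped between the models at 100, 400 or 800 mm3, and the log2 differences were -1.51 ± 0.21 (adjusted p = 3.76e-04), -1.74 ± 0.34 (0.00302) and -2.44 ± 0.29 (7.62e-05) by edgeR. Chac1 was at 22.0, 20.7, 33.2 and 30.6 CPM in 100 mm3 CT-26 tumors and at 8.52, 12.1, 12.2 and 12.6 CPM in Colon 26. At 800 mm3 it was at 28.9, 19.2, 44.1 and 35.9 CPM against 4.38, 6.37, 10.1 and 8.04 CPM. It was lower in Colon 26 without overlap, by log2 differences of -1.23 ± 0.19 (adjusted p = 7.66e-04), -1.74 ± 0.21 (2.62e-04) and -2.16 ± 0.29 (1.54e-04).

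Atf4 was at 587, 431, 488 and 501 CPM in 100 mm3 CT-26 tumors and at 275, 315, 302 and 291 CPM in Colon 26. The groups stood apart, at a log2 difference of -0.77 ± 0.10 (adjusted p = 2.59e-04), followed by -0.80 ± 0.09 (1.92e-04) at 400 mm3 and -0.84 ± 0.09 (3.5e-05) at 800 mm3. Ddit3 was at 51.4, 47.3, 59.7 and 41.3 CPM in 100 mm3 CT-26 tumors and at 23.1, 27.7, 31.4 and 27.1 CPM in Colon 26, again without overlap but under the fold threshold (-0.87 ± 0.13, adjusted p = 6.17e-04). At 400 mm3 Ddit3 was at 111, 97.1, 169 and 71.4 CPM in CT-26 and at 20.4, 38.8, 50.8 and 37.1 CPM in Colon 26, a called difference of -1.61 ± 0.31 (adjusted p = 0.00299). At 800 mm3 the CT-26 tumors spread from 52.5 to 169 CPM, all above the Colon 26 range of 25.3 to 38.0 CPM (-1.72 ± 0.33, adjusted p = 0.0015). Sesn2 was lower in Colon 26 by a log2 difference of -0.28 to -0.61 and was called at none of the 3 sizes.

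Atf3 alone of the members was called higher in Colon 26 tumors. At 100 mm3 it was at 13.0, 17.8, 6.53 and 14.2 CPM in CT-26 and at 13.4, 21.6, 36.1 and 33.2 CPM in Colon 26. These groups overlapped, and the log2 difference of 1.02 ± 0.36 (adjusted p = 0.0439) fell to 0.81, under the fold threshold, without replicate 3 of CT-26, to 0.84 without replicate 3 and to 0.87 without replicate 4 of Colon 26. At 400 mm3 the difference was 0.81 ± 0.44 (adjusted p = 0.171). At 800 mm3 the CT-26 tumors held 19.8, 8.37, 13.2 and 4.45 CPM and the Colon 26 tumors 27.2, 24.0, 29.3 and 38.7 CPM, apart from each other (1.37 ± 0.36, adjusted p = 0.00927).

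The ER arm gave smaller differences. Hspa5 at 100 mm3 was at 1017, 1206, 1101 and 1157 CPM in CT-26 and at 1024, 1302, 1154 and 1059 CPM in Colon 26, overlapping ranges with a log2 difference of 0.02 ± 0.09 (adjusted p = 0.895). The difference was -0.23 ± 0.22 at 400 mm3 and -0.09 ± 0.17 at 800 mm3. Xbp1 was higher in Colon 26 at 100 mm3, at 130, 133, 123 and 111 CPM against 76.1, 88.3, 96.5 and 101.5 CPM, without overlap and under the fold threshold (0.45 ± 0.09, adjusted p = 0.00392). Of 5 plasma cell markers, Sdc1, which other cells also express, had means of 70.0 CPM for CT-26 against 150.3 CPM for Colon 26 at that size (14.9 and 93.6 CPM in culture), whereas Tnfrsf17 (1.26 and 0.0529 CPM), Igkc (0.745 and 0.387 CPM) and Jchain (0.264 and 0.126 CPM) had higher means in CT-26 and Mzb1 was at 0.160 CPM or less in both; their part was not tested. Xbp1 was also higher in Colon 26 in the larger tumors, under the fold threshold by edgeR. Its difference was 0.33 ± 0.14 at 400 mm3 (adjusted p = 0.0918, with overlap) and 0.38 ± 0.08 at 800 mm3 (adjusted p = 0.00269, without overlap). At 100 mm3 Herpud1 was higher by 0.46 ± 0.10 (adjusted p = 0.00531), and its difference was 0.09 ± 0.18 at 400 mm3 and -0.10 ± 0.14 at 800 mm3. Without the 400 mm3 Colon 26 tumor rich in muscle markers, 4 members were still called at that size, at -1.38 (Asns), -1.5 (Trib3), -1.63 (Chac1) and -1.41 (Ddit3).

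**Figure D2:**
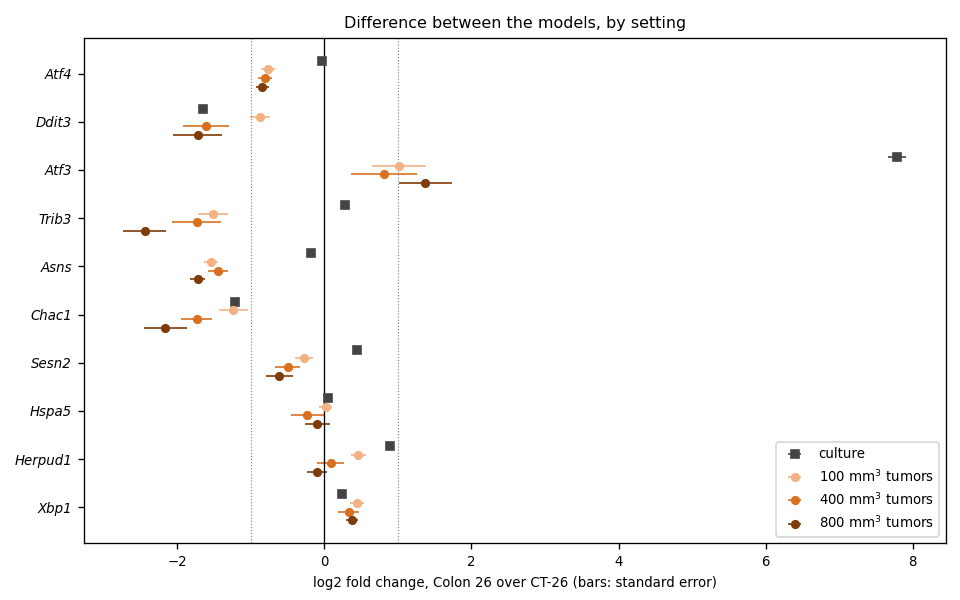
The log2 fold change of Colon 26 over CT-26 (x axis) is plotted for each gene in culture (squares) and in tumors of 100, 400 and 800 mm3 (dots, darker with size), with bars of 1 standard error and dotted lines at the fold threshold. For Asns the square lies at -0.18 and the dots from -1.45 to -1.72, and for Hspa5 all 4 marks lie between -0.23 and 0.06.

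The third question was how small tumors compared with the cultures of the same line. The library numbers of both cultures also fall outside the run of numbers of the tumors, so that a batch and the step from culture to tumor cannot be told apart. Nearly all members were lower in tumors than in culture, in both models, with Xbp1 slightly higher and Atf3 far higher in CT-26 tumors. In CT-26, 1 member was called higher and 5 lower (all genes: 32.2% called, 22.2% higher and 10.1% lower), and in Colon 26, 0 were called higher and 8 lower (26.9%, 20.8% and 6.11%). The median log2 difference, tumor minus culture, was -0.89 in CT-26 and -1.53 in Colon 26, beside 0.06 and 0.05 over all genes. The tumor and culture libraries did not overlap for 9 members in CT-26 (1 higher, 8 lower) and for 10 in Colon 26 (1 higher, 9 lower), where 38.5% and 33.1% of all genes did so in CT-26 and 36.2% and 38.9% in Colon 26. The leukocyte, fibroblast and endothelial markers were all higher in the tumors as well (endothelial sum under 0.60 CPM in culture, 52.4 to 179 CPM in 100 mm3 CT-26 tumors and 94.4 to 130 CPM in Colon 26), and their part in these falls was not tested.

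Trib3 fell the most in Colon 26. From 308, 305 and 304 CPM in culture it stood at 14.6 to 26.7 CPM in 100 mm3 tumors, 13.4-fold lower (log2 difference -3.74 ± 0.17, adjusted p = 1.42e-07, edgeR). In CT-26 it fell 4.04-fold, from 241, 256 and 241 CPM to 50.5 to 77.8 CPM (-2.01 ± 0.13, adjusted p = 4.67e-06). Asns fell 4.08-fold in Colon 26 (-2.03 ± 0.06, adjusted p = 1.58e-08), whereas in CT-26 it was 1.64-fold lower, under the fold threshold (-0.72 ± 0.08, adjusted p = 6.62e-05). Atf4 fell 2.3-fold in Colon 26 (-1.20 ± 0.05, adjusted p = 7.21e-08) and was 1.43-fold lower in CT-26 (-0.52 ± 0.09, adjusted p = 0.00116), which was not called.

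Ddit3 fell 6.44-fold in CT-26 (-2.69 ± 0.12, adjusted p = 8.44e-07) and 3.61-fold in Colon 26 (-1.85 ± 0.09, adjusted p = 1.5e-07). Chac1 fell by almost the same amount in both, at -2.25 ± 0.16 (adjusted p = 7.11e-06) and -2.22 ± 0.12 (3.43e-07). Sesn2, at 73.4, 81.2 and 79.1 CPM in CT-26 culture and 108.5, 109 and 108 CPM in Colon 26 culture, stood at 26.7 to 36.8 and 24.3 to 28.3 CPM in the tumors. Its log2 differences were -1.29 ± 0.12 (adjusted p = 3.35e-05) and -1.96 ± 0.06 (8.81e-09), both called. Herpud1 fell in Colon 26 (-1.15 ± 0.06, adjusted p = 2.88e-07) and was lower by -0.77 ± 0.10 in CT-26, under the fold threshold.

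Hspa5 was 2.03-fold lower in CT-26 tumors (-1.02 ± 0.07, adjusted p = 7.77e-06) and 2.01-fold lower in Colon 26 tumors (-1.0 ± 0.08, adjusted p = 4.06e-06). Both lie at the fold threshold: the CT-26 call was lost, at -0.98, without replicate 1 of the tumors, and the Colon 26 call was lost, at -0.94 to -1.0, without tumor replicate 1, 3 or 4 or culture replicate 3. Xbp1 was higher by 0.07 ± 0.10 in CT-26 tumors and by 0.33 ± 0.06 in Colon 26 tumors, called in neither. Atf3 rose in CT-26 from 2 to 6 counts in each culture to 6.53 to 17.8 CPM (fitted log2 difference 6.26 ± 0.49, adjusted p = 1.18e-05). In Colon 26 every tumor lay below every culture, 13.4 to 36.1 against 36.6 to 38.7 CPM, at a difference of -0.46 ± 0.28 that did not pass (adjusted p = 0.165).

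**Figure D3:**
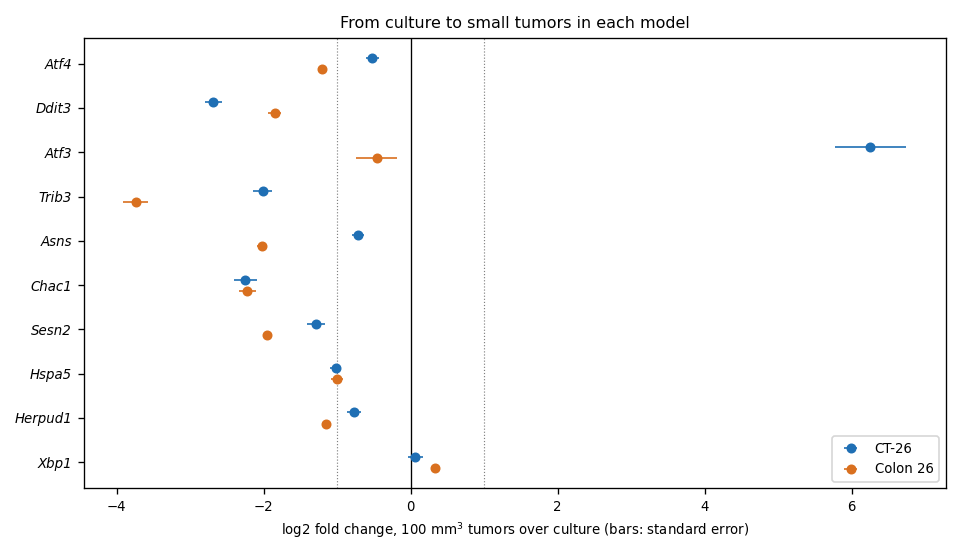
The log2 fold change of 100 mm3 tumors over culture (x axis) is plotted for each gene in CT-26 (blue) and Colon 26 (orange), with bars of 1 standard error and dotted lines at the fold threshold. Hspa5 and Chac1 have nearly coinciding dots (-1.02 and -1.0, -2.25 and -2.22), while Asns lies at -0.72 in CT-26 and -2.03 in Colon 26.

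Whether the step from culture to tumor differed between the models was tested as an interaction, the Colon 26 change minus the CT-26 change. It was called for 3 members, all negative, where 17.6% of all genes were called (8.29% positive, 9.31% negative). Asns fell further in Colon 26 by 1.36 ± 0.11 on the log2 scale (adjusted p = 3.04e-07) and Trib3 by 1.78 ± 0.24 (adjusted p = 4.95e-05). For Atf3 the interaction was -6.77 ± 0.69 (adjusted p = 3.55e-06), a value that rests on the 2 to 6 counts of the CT-26 cultures. Atf4 (-0.73 ± 0.11, adjusted p = 1.19e-04) and Sesn2 (-0.71 ± 0.15, adjusted p = 0.00123) had the same sign under the fold threshold, and Ddit3 the opposite one (0.79 ± 0.16, adjusted p = 9.92e-04). For Chac1 (-0.02 ± 0.22, adjusted p = 0.975) and Hspa5 (-0.03 ± 0.11, adjusted p = 0.865) no difference was detected. This contrast and the model and culture contrasts share libraries, and it carries the same confounding of batch and model in culture.

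The last question was whether tumor size mattered. Between 100 and 800 mm3 no member was called in CT-26 (0% of all genes called) or in Colon 26 (1.33% called, 0.169% higher and 1.16% lower) by edgeR, and none by DESeq2. At an unadjusted p under 0.05, edgeR counted 1 member in CT-26 and 2 in Colon 26, and DESeq2 counted 2 and 3. Of all genes tested, 10.5% and 20.7% did so by edgeR and 6.44% and 11.8% by DESeq2. DESeq2 was run without the expression filter, so its shares include genes of very low count and are not over the same genes. In CT-26 the 2 size groups overlapped for all 10 members (2.36% of all genes were higher and 2.54% lower without overlap). The largest value between these sizes was Ddit3 in CT-26, from 41.3 to 59.7 CPM at 100 mm3 to 52.5, 64.5, 114 and 169 CPM at 800 mm3 (log2 difference 1.0 ± 0.33, adjusted p = 0.418). With all 30 libraries in one fit, its difference of 1.01 passed (adjusted p = 0.072), as did 0.537% of all genes. The step from 100 to 400 mm3 was not tested. Ddit3 in CT-26 was at 71.4 to 169 CPM at 400 mm3, above all 100 mm3 tumors. The share of all genes that stood apart between these sizes was not computed, so no size effect is drawn from this. Herpud1 in Colon 26 was the only member whose 100 and 800 mm3 groups stood apart, 97.0 to 116 CPM at 100 mm3 and 74.0 to 91.9 CPM at 800 mm3 (-0.35 ± 0.08, adjusted p = 0.055), where 5.97% of all genes were lower and 6.79% higher without overlap. The test of whether the model difference changed with size called none of the members (0.0308% of all genes called, 0.0123% positive and 0.0185% negative). At an unadjusted p under 0.05 both edgeR and DESeq2 counted 4 of the 10. Of all genes tested, 12.5% did so by edgeR and 7.23% by DESeq2, the latter again without the expression filter.

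Libraries within a tumor group varied, and the same tumors were often high for several members. Replicate 3 of the 400 mm3 Colon 26 tumors held the highest level of its group for 8 of the 10 members. Replicate 3 of the 400 mm3 CT-26 tumors and replicate 4 of the 800 mm3 tumors of both models each did so for 7. At 100 mm3 no library did so for more than 5 members in CT-26 or 4 in Colon 26. The share of all genes highest in each library was not computed. Replicate 3 of the 400 mm3 CT-26 tumors also held the highest sum of 10 hypoxia genes of any library (11272 CPM) and the lowest leukocyte sum among tumors (480 CPM). The other libraries named varied in the hypoxia sum. Replicate 4 of the 800 mm3 tumors was lowest of its group in CT-26 (3952 CPM) and highest in Colon 26 (6887 CPM). Replicate 3 of the 400 mm3 Colon 26 tumors (6794 CPM) lay below replicate 2 (8176 CPM). Without replicate 3 of the 400 mm3 CT-26 tumors, 4 members were called between the models at 400 mm3, with Trib3 at -1.48 and Ddit3 at -1.34.

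The order of the groups by mean level separated the genes into patterns. For Asns, Trib3 and Chac1 both cultures stood above all CT-26 tumors, and these above all Colon 26 tumors, while tumor groups of one model overlapped with each other. Atf4 followed the same order with overlapping cultures (716 ± 25.6 and 720.5 ± 5.9 CPM, SD, n = 3). For Hspa5 the cultures overlapped and stood above all 6 tumor groups, which overlapped with their neighbours. All neighbours overlapped for Xbp1, and for Atf3 only CT-26 culture stood apart from the group next to it. Over the 8 group means of log2 CPM, the genes most like Asns by Pearson's r were Xpot (0.998), Phgdh, Pwp1 and Mthfd2 (0.995 each) and Gm7901 (0.995) among 10942 genes with a mean of at least 5 CPM. Among members, Atf4 (0.993), Trib3 (0.960) and Chac1 (0.954) were close to Asns, and Xbp1 (-0.844) was not. Among the genes most like Hspa5 were Eaf1 (0.997), Mafk and Ptpn4 (0.994 each). These correlations share libraries and the large step from culture to tumor, and are descriptions.

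Other genes of the same pathways were taken from 9 lists of 99 genes. From culture to 100 mm3 tumors, 22.2% of all genes were called higher and 10.1% lower in CT-26. These shares were 20.8% and 6.11% in Colon 26. By the interaction test 8.29% of all genes were positive and 9.31% negative. In Colon 26, amino acid genes were lower in 100 mm3 tumors than in culture: 9 of 9 genes of amino acid and one-carbon synthesis fell (median log2 difference -1.51), with Cth at -5.56 ± 0.10, Pycr1 at -2.66 ± 0.04 and Gpt2 at -2.44 ± 0.07. Of 9 amino acid transporters 6 fell (median -1.33), led by the cystine carrier Slc7a11 at -3.88 ± 0.18, Slc6a9 at -2.69 ± 0.07 and Slc7a1 at -1.60 ± 0.05. Of 12 aminoacyl-tRNA synthetases 9 fell (median -1.38), among them Tars at -1.71 ± 0.05. In CT-26 the same lists had 2 of 9, 3 of 9 and 4 of 12 genes called lower and none higher (medians -0.60, -0.87 and -0.65), with Cth at -2.90 ± 0.37, Slc7a11 at -1.79 ± 0.08 and Eprs at -1.19 ± 0.06. Cth was at a mean of only 0.330 CPM in the 100 mm3 CT-26 tumors. By the interaction test 7 of the 9 synthesis genes, 2 of the 9 transporters and 2 of the 12 synthetases fell further in Colon 26 and none less, among them Mthfd2 (-1.5 ± 0.12), Slc7a11 (-2.14 ± 0.22) and Tars (-1.23 ± 0.09).

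ER chaperones and folding enzymes moved little. Of 17, 1 rose and 2 fell in CT-26 tumors (Sdf2l1 at 1.29 ± 0.16, the oxidase Ero1l at -1.22 ± 0.33 and Dnajb9 at -1.11 ± 0.10; median 0.26), and 0 rose and 1 fell in Colon 26 (Ero1l at -1.13 ± 0.09; median 0.04). ER-associated degradation had 2 of 11 tested genes lower in CT-26 (Sel1l at -1.27 ± 0.07 and Herpud2 at -1.22 ± 0.07) and 0 of 11 called in Colon 26. Of 9 sensors, eIF2alpha kinases and phosphatases, 3 fell in both models: the eIF2alpha phosphatase subunit Ppp1r15a (-3.44 ± 0.14 in CT-26, -3.26 ± 0.11 in Colon 26), Ern1, which encodes IRE1 (-2.26 ± 0.14 and -2.13 ± 0.14), and Atf6 (-1.14 ± 0.08 and -1.27 ± 0.06). Of 10 other targets and partners of Atf4, 2 rose in CT-26 (Fgf21 at 2.32 ± 0.70 and Ddit4 at 1.39 ± 0.14), and 4 fell in Colon 26, led by Gdf15 at -4.17 ± 0.11. The Fgf21 value rests on a mean of only 0.117 CPM in CT-26 culture.

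Between the models, genes of the amino acid lists were called in both directions. Of all genes, 22.9% were called in either direction in culture, and 13.2%, 14.3% and 14.1% at 100, 400 and 800 mm3. In culture 3 of 9 synthesis genes were higher in Colon 26 (Cth 5.57 ± 0.08, Gpt2 1.30 ± 0.04 and Pycr1 1.22 ± 0.04) and no transporter or synthetase was called. At 100 mm3 2 of 9 synthesis genes were lower and 1 higher, and 1 of 9 transporters and 2 of 12 synthetases were lower. At 400 mm3 2 synthesis genes were lower and 1 higher, and 1 transporter and 3 synthetases were lower. At 800 mm3 3 synthesis genes were lower and 1 higher (Phgdh -1.48 ± 0.10 and Mthfd2 -1.40 ± 0.11, against Cth 3.83 ± 0.31), 3 of 9 transporters were lower (Slc7a11 -2.32 ± 0.24) and 3 of 12 synthetases were lower (Tars -1.31 ± 0.09). Cth was at a mean of only 0.148 CPM in the 800 mm3 CT-26 tumors. Gdf15 was at 1 to 3 counts in each CT-26 culture, so that it was at least 455-fold higher in Colon 26 culture (taking 3 counts in each CT-26 library). No gene of the ER chaperone or degradation lists was called between the models in culture, at 100 mm3 or at 800 mm3, and Ero1l alone of these lists was called at 400 mm3 (-1.20 ± 0.39, adjusted p = 0.0344).

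**Figure D4:**
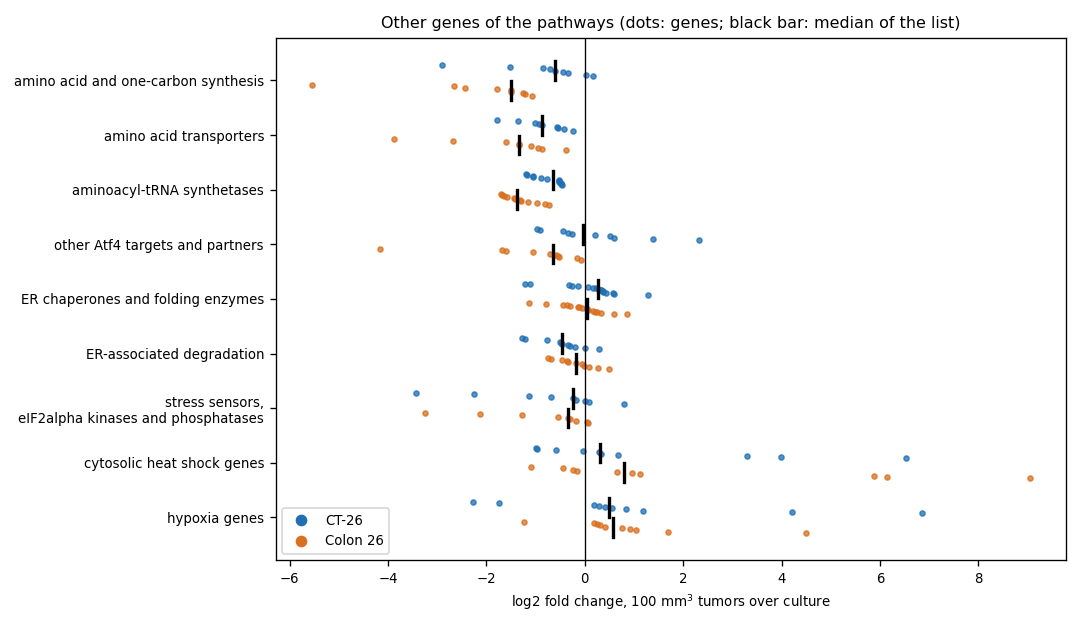
Each dot is 1 gene of a pathway list at its fitted log2 fold change of 100 mm3 tumors over culture (x axis), CT-26 in blue and Colon 26 in orange, with a black bar at the median of the list. The bars of the amino acid lists and synthetases lie at -1.33 to -1.51 in Colon 26 and at -0.60 to -0.87 in CT-26, and those of the ER chaperones at 0.04 and 0.26. The fitted value of Hspa1a in Colon 26 rests on 2 to 3 counts in each culture.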

How the data were processed

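RNA was sequenced as paired-end poly-A libraries from 30 samples. Per the labels and the study's methods, the authors counted reads per Ensembl gene and also deposited FPKM; the aligner, genome build and strand handling are not given in the sources used here, and the submitters' notes name DESeq2 1.24.0. The deposited table holds estimated counts (23.0% of non-zero values were not whole), which were rounded. The authors' FPKM values (per kilobase at a common library total) served only to compare genes with each other and as an alternative unit. Symbols came from reference tables (97.7% of 53431 IDs).

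Each comparison was fitted on its own libraries with edgeR 4.0.16 (TMM, filterByExpr, quasi-likelihood test, Benjamini-Hochberg; R 4.3.3); standard errors were derived from the F statistic. DESeq2 1.42.0 and limma 3.58.1 on log2(FPKM + 1) and log2(FPKM + 0.1) were alternatives, as were other scalings, filters, thresholds and leaving out each library; the code was tested on simulated data. Depth was 21384730 to 39722586 counts; intervals cover counting error only. Pairs of libraries of a group were compared by chi-square per gene on library totals without TMM scaling. It was 3.05 to 4.82 between cultures and 10.8 to 82.8 between tumors. Shifts in library composition enter this value, so in culture it cannot show spread beyond counting noise. The text names all members and at most 3 called genes of a list per comparison by size of change. Members and lists were chosen with earlier results of these data known. Some genes most like Hspa5 are not reported here.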

Additional observations from a re-analysis of the deposited data

Results flagged for a closer look

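Of 60 tumor groups of 4 libraries tested, gene by gene, 3 had a library far from the others by Dixon's criterion, where chance gives about 1 in 20. Asns in 800 mm3 CT-26 tumors was lowest in replicate 2 at 239 CPM, with the others at 309 to 325 CPM. Chac1 in 100 mm3 Colon 26 tumors was lowest in replicate 1 at 8.52 CPM, with the others at 12.1 to 12.6 CPM. Xbp1 in 800 mm3 CT-26 tumors was highest in replicate 4 at 106 CPM, with the others at 89.5 to 91.7 CPM.

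The change from culture to 100 mm3 tumors differed between the models for 3 members by the edgeR interaction test, at -1.36 for Asns, -1.78 for Trib3 and -6.77 for Atf3 (log2, Colon 26 minus CT-26).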

How the results depend on the processing

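Of 33 called member results (of 100), 30 kept their call in every alternative run that tested them. The other 3 were the model difference of Atf3 at 100 mm3 (0.93 by limma on log2(FPKM + 1)) and the culture to tumor falls of Hspa5 in CT-26 (-0.98 with at least 10 counts in every library) and Colon 26 (-0.96 with that filter, -0.99 with RLE scaling). With no minimum fold change the members called numbered 9 in culture, 9 at 100 mm3, 7 at 400 mm3, 8 at 800 mm3, 1 for Colon 26 800 against 100 mm3 and 7 for the interaction with culture, by construction (82.6%, 56.5%, 52.2%, 59.4%, 6.67% and 51% of all genes); with all 30 libraries in one fit 1 was called for CT-26 800 against 100 mm3 (Ddit3). Leaving out 1 library left every count of members called within 1.5 times its value. The filter of 10 counts drops Atf3 wherever CT-26 cultures enter, so the Atf3 calls in those comparisons were not tested under that filter. By DESeq2 the median of all genes was 0.19 beside 0.05 in the main run for Colon 26 tumors against culture. It was -0.10 beside 0.01 between the cultures and 0.14 beside -0.02 for the interaction. DESeq2 was run without the expression filter, so these medians are over different sets of genes.

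Signs turned for 14 results, none called, of at most 0.18 in size; the cause was not tested. Atf4 in culture was 0.045 with no filter. Hspa5 at 800 mm3 was 0.018 by limma with either pseudocount. For the interaction with culture, Hspa5 was 0.017 (DESeq2), 0.026 (RLE), 0.021 (the filter of 10 counts) and 0.023 (one fit), and Chac1 was 0.030 (DESeq2), 0.039 (RLE), 0.034 (the filter of 10 counts and one fit), 0.027 (limma with + 0.1), 0.00088 (library size only) and 0.099 (limma with + 1). With 1 library left out the ranges that crossed 0 were Hspa5 -0.043 to 0.073 (models, 100 mm3 tumors), Herpud1 -0.044 to 0.24 (models, 400 mm3 tumors), Hspa5 -0.20 to 0.12 (models, 800 mm3 tumors), Xbp1 -0.0022 to 0.14 (CT-26 100 mm3 tumors versus culture), Hspa5 -0.040 to 0.28 (CT-26 800 versus 100 mm3 tumors), Atf4 -0.050 to 0.11 (CT-26 800 versus 100 mm3 tumors), Atf3 -0.58 to 0.10 (CT-26 800 versus 100 mm3 tumors), Xbp1 -0.016 to 0.11 (CT-26 800 versus 100 mm3 tumors), Atf3 -0.042 to 0.37 (Colon 26 800 versus 100 mm3 tumors), Xbp1 -0.072 to 0.025 (Colon 26 800 versus 100 mm3 tumors), Hspa5 -0.086 to 0.040 (model difference, 100 mm3 tumors minus culture), Chac1 -0.12 to 0.12 (model difference, 100 mm3 tumors minus culture) and Hspa5 -0.22 to 0.10 (model difference, 800 minus 100 mm3 tumors).

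No paired analysis was possible because the labels give no replicate numbers that pair libraries between groups.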

Other observations

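The remaining lists, cytosolic heat shock genes and hypoxia genes, did not follow the members. From culture to 100 mm3 tumors 3 of 10 heat shock genes rose and 0 fell in CT-26 (median log2 difference 0.32), and 4 rose and 1 fell in Colon 26 (median 0.80). Of all genes, 22.2% rose and 10.1% fell in CT-26, and 20.8% rose and 6.11% fell in Colon 26. Hspa1b, an inducible cytosolic Hsp70, rose by 3.30 ± 0.24 in CT-26 and 5.88 ± 0.62 in Colon 26 (log2, SE, edgeR), and its interaction of 2.53 ± 0.71 passed (adjusted p = 0.0102). Its twin gene Hspa1a, which is near-identical and may share reads, was at 2 to 3 counts in each Colon 26 culture and at least 414-fold higher in the tumors (taking 3 counts in each culture). Hspa1b was also higher in Colon 26 than in CT-26 tumors, by 2.31 ± 0.45 at 100 mm3, 1.62 ± 0.49 at 400 mm3 and 2.70 ± 0.39 at 800 mm3.

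Of 10 hypoxia genes 3 rose and 2 fell in CT-26 (median 0.49), and 3 rose and 1 fell in Colon 26 (median 0.58). The shares of all genes were 22.2% higher and 10.1% lower in CT-26, and 20.8% and 6.11% in Colon 26. Adm, which encodes adrenomedullin, was at 0 to 1 counts in each CT-26 culture and at least 30.2-fold higher in the tumors, and rose by 4.5 ± 0.19 in Colon 26.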
